A study of Mus musculus with 10 samples.

Results

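The 8 genes described here encode receptors and products of the gonadotropin-responsive follicle and the corpus luteum: the receptors Fshr, Lhcgr, Prlr, Ptgfr and Oxtr, the progesterone-catabolizing enzyme Akr1c18, and the secreted proteins Insl3 and Sfrp4. They were found by symbol, each on 1 row, among the 55487 genes measured, and all 8 passed the filter on low counts. RNA was sequenced from 10 ovaries of C57BL/6J mice, each ovary with its own library. The Control group held 4 ovaries of mice aged 8 weeks, the Aged group 3 ovaries and the Aged+CF group 3 ovaries of old mice, whose age is 11 months in the sample labels and 10 months in the methods of the study. Aged+CF mice received cell-free fat extract (CEFFE), the watery, protein-containing fluid left when fat tissue is emulsified and centrifuged. Each injection, into a tail vein, held 200 μL with 3 μg/μL of protein, and injections were repeated at intervals of 2 days over 2 weeks. Saline of equal volume stood in for the extract in Control and Aged mice. All mice, Control included, were given 10 IU of pregnant mare serum gonadotropin (PMSG) 48 h before the ovaries were taken, so every level below belongs to a gonadotropin-primed ovary. The replicate numbers 30 to 34 are those of the sample titles, and an equal number does not mark the same animal.

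Follicle-stimulating hormone acts through FSHR on granulosa cells of growing follicles. Luteinizing hormone acts through LHCGR on theca cells, on granulosa cells of late follicles and on luteal cells, and both receptors raise cAMP. After ovulation in rodents, prolactin acting on PRLR maintains the corpus luteum, whereas prostaglandin F2α acting on PTGFR starts its regression and AKR1C18 converts progesterone to a metabolite with little progestational activity. PMSG itself binds the receptors for both gonadotropins and drives follicle growth.

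Between 15761789 and 21318254 counts per ovary fell on genes, and the 8 genes together took 0.133 to 1.31% of them. Levels between ovaries are given as CPM, counts scaled to a common library size, and levels between genes as FPKM, which also divides by the gene length. A gene was called changed where edgeR's quasi-likelihood test gave a fold of at least 1.5 and a p under 0.05 after Benjamini-Hochberg (BH) adjustment over 18956 genes. In ovary Aged 34 the granulosa marker Amh was at 3.25 CPM against 90.2 to 722 CPM in the other 9 ovaries, and the zona pellucida gene Zp3 at 0.937 CPM. Other granulosa markers went either way. Inhbb was also lowest in Aged 34 (112 CPM), whereas Inha there (2249 CPM) lay between Aged 31 (1542 CPM) and Aged 33 (2253 CPM). The oviduct glycoprotein gene Ovgp1 was at 245 CPM in Aged 34 and 298 CPM in Control 33 and at 31.2 CPM or less elsewhere, so calls of the 8 genes that changed without either of these ovaries are given both ways. In whole ovaries, a smaller number of cells of a type cannot be told apart from less RNA per cell.

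In Aged vs Control, 5 of the 8 genes rose (Lhcgr, Prlr, Ptgfr, Akr1c18 and Sfrp4) and none fell. Of all genes tested, 11.1% were called in either direction, 5.0% (948 genes) higher and 6.06% lower. The 8 genes were chosen with earlier results of these data known, so these shares stand beside them as a description. The fold changes of the 5 called genes lay between 2.48 and 9.12. Fshr and Insl3 were lower in Aged, with adjusted p-values just over the threshold, and Oxtr was higher in Aged without passing it. At an unadjusted p all 8 passed, against 18.2% of all genes tested, with 6 higher (8.79% of all genes) and 2 lower (9.44%). The median log2 fold change over the 8 genes was 1.55, and over all genes tested it was -5e-04. Ranges of the groups did not overlap for 6 genes, 4 higher and 2 lower in Aged, which is also seen in 27.5% of all genes tested (11.8% higher and 15.6% lower). The number of members called depended on single ovaries. It was 2 without Control 32 or without Aged 33, 3 without Control 33, Control 34 or Aged 31, and 6 without Aged 34. Calls over all genes moved as well, with 1081 without Control 32 and 3112 without Aged 34. Other tests also called other genes of the 8. DESeq2 called all 8, and it called 2761 of 18956 genes where edgeR called 2096. Limma-trend called 5, 4 higher and 1 lower, with Insl3 in the place of Akr1c18, and edgeR on the Aged and Control ovaries alone called 3 higher and 2 lower, with Fshr and Insl3 in the place of Ptgfr and Akr1c18.

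After CEFFE, none of the 8 genes was called by edgeR in Aged+CF vs Aged, where 0.00528% of all genes tested were. At an unadjusted p there were 3, against 7.96% of all genes, with Lhcgr and Oxtr lower (4.05% of all genes) and Fshr higher (3.91%). DESeq2 called 1 of the 8, Lhcgr, and 442 of 18956 genes, where edgeR called 1 gene. Limma-trend called 0 of the 8. Lhcgr was also the only one of the 8 without overlap between these groups, which 18.6% of all genes showed and 8.39% in the lower direction. The median log2 fold change over the 8 genes was -0.53, and over all genes -0.021. Between Aged+CF and Control, edgeR called none of the 8 and 0.179% of all genes. At an unadjusted p 4 were higher (Prlr, Ptgfr, Akr1c18 and Sfrp4) against 3.33% of all genes higher and 7.69% in either direction. DESeq2 called 2 (Akr1c18 and Sfrp4) and 528 of 18956 genes, where edgeR called 34 genes. Limma-trend called 0 of the 8. Here 3 of the 8 (Ptgfr, Akr1c18 and Sfrp4) lay above Control with no overlap, as 9.69% of all genes did, and 21.9% did not overlap in either direction. The comparisons share ovaries, since each group enters a pair of them, so their values are not independent.

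**Figure D1:**
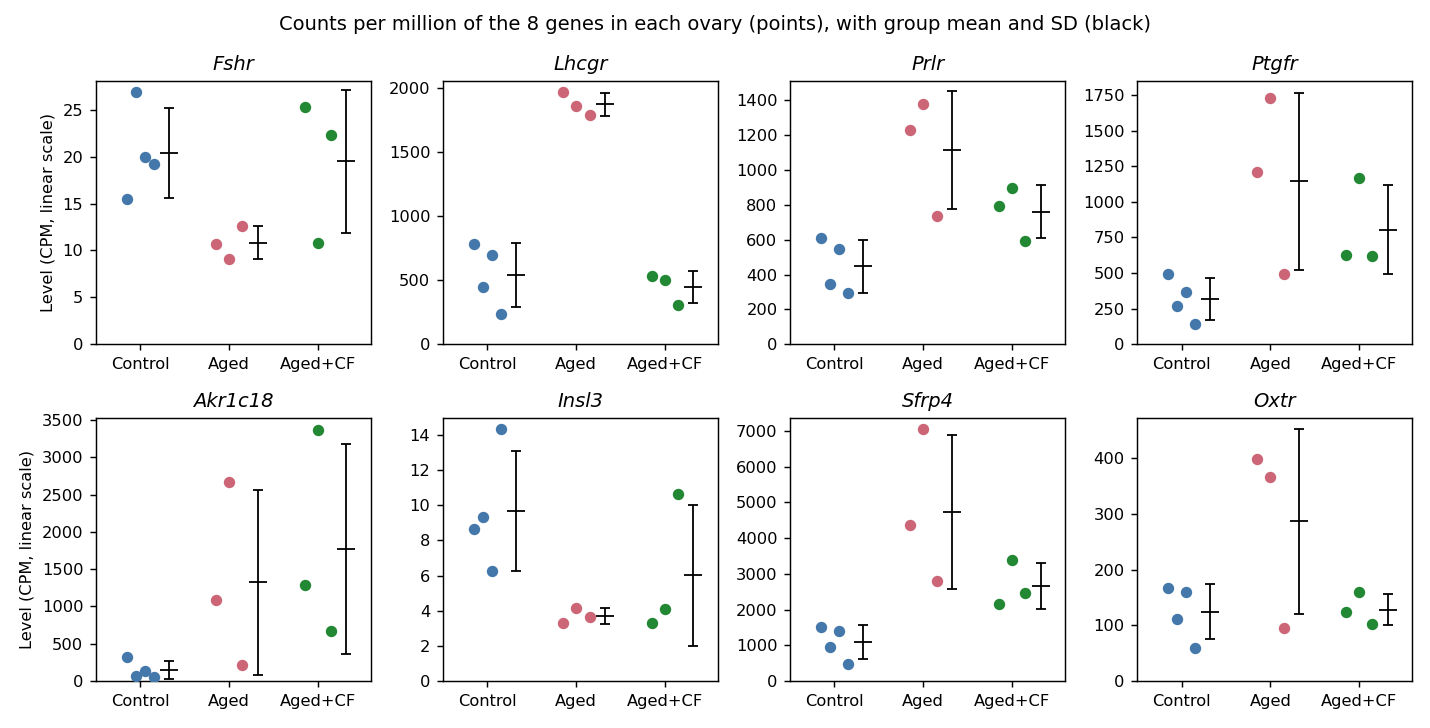
Level of each of the 8 genes in CPM on a linear scale that starts at 0, with 1 point per ovary and the group mean ± SD in black, for Control (n = 4), Aged (n = 3) and Aged+CF (n = 3). The 3 Aged points of Lhcgr lie between 1789 and 1967 CPM and all other ovaries at or under 785 CPM, whereas the Aged points of Akr1c18 spread from 219 to 2671 CPM.

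The 2 gonadotropin receptor genes lie next to each other on chromosome 17 and are read from the same strand. By GENCODE on GRCm38, Fshr (ENSMUSG00000032937) spans chr17:88984952-89200675 and Lhcgr (ENSMUSG00000024107) chr17:88716481-88791990, both on the minus strand and both protein coding. Because the log2 fold changes of these neighbours had opposite signs in Aged vs Control, the 250 bases before each RefSeq start are shown (GRCm38.p6, 5′ to 3′ on the minus strand, chr17:89200676-89200925 for Fshr and chr17:88792015-88792264 for Lhcgr). Capitals mark the letters TCAAGG, the core of the response element of the steroidogenic regulators NR5A1 and NR5A2, the E-box CACGTG and the GC box GGGCGG.
Fshr: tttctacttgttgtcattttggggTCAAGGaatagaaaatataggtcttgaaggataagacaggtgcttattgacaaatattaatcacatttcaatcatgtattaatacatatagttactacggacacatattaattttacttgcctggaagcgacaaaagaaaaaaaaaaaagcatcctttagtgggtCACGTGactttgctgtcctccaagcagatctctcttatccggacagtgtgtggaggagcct
Lhcgr: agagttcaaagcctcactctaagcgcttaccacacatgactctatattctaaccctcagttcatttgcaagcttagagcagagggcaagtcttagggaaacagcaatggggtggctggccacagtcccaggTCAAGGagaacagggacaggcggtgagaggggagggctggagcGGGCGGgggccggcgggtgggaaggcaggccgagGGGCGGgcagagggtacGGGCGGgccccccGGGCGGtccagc
On either strand, TCAAGG was found at -226 in Fshr and at -119 in Lhcgr (position of the first base, with -1 the base before the start). It is in 12.5% of 32851 RefSeq mouse promoter windows of this table, which reach 250 bases before the start. Fshr also held CACGTG at -61, found in 6.02% of the windows, and no GC box. Lhcgr held 4 GC boxes, and 32.7% of the windows held at least 1. Oxtr, higher in Aged without passing, held TCAAGG (-20), CACGTG (-43) and a GC box (-49). Insl3, lower in Aged without passing, held TCAAGG (-138), a GC box (-47) and no CACGTG. Ptgfr and Akr1c18 held a GC box but neither TCAAGG nor CACGTG, and Prlr held none of these motifs. The cAMP response element TGACGTCA, in 1.55% of the windows, was in none of these genes. These matches describe the letters of the windows and were not measured as binding.

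Fshr, the receptor through which follicle-stimulating hormone acts on granulosa cells, had the lowest FPKM of the 8 genes in each group mean. Its level was 15.5, 26.9, 19.9 and 19.2 CPM in Control 31, 32, 33 and 34, 10.7, 9.10 and 12.6 CPM in Aged 31, 33 and 34, and 25.3, 10.8 and 22.3 CPM in Aged+CF 30, 32 and 34. All 3 Aged ovaries lay below all Control ovaries, and in Aged+CF a pair of ovaries lay at Control levels while Aged+CF 32 lay among the Aged ones. The mean was 20.4 ± 4.77 CPM in Control (SD, n = 4), 10.8 ± 1.76 in Aged (SD, n = 3) and 19.5 ± 7.67 in Aged+CF (SD, n = 3). The log2 fold change was -0.91 ± 0.29 (SE) in Aged vs Control, with an adjusted p of 0.0609 by edgeR. Fshr passed by DESeq2 (adjusted p = 0.0193), in the fit of Aged and Control ovaries alone (adjusted p = 0.0401) and without Aged+CF 32, an ovary of neither group (adjusted p = 0.0233), and missed by limma-trend (adjusted p = 0.0641). Against Aged, Aged+CF gave 0.85 ± 0.31, with an unadjusted p of 0.0203 and an adjusted p of 0.234, so Fshr did not pass there. Aged+CF vs Control gave -0.06 with a 95% interval of -0.70 to 0.57.

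Lhcgr, the receptor for luteinizing hormone, held the smallest spread within a group among the 8 genes, in Aged. Its level was 785, 443, 695 and 234 CPM in Control 31, 32, 33 and 34. It was 1967, 1861 and 1789 CPM in Aged 31, 33 and 34, and 536, 499 and 304 CPM in Aged+CF 30, 32 and 34. Every Aged ovary was above every other ovary, and the Aged+CF ovaries lay inside the Control range. The Aged mean was 1872 ± 89.3 CPM (SD, n = 3), a coefficient of variation of 4.77%, against 539 ± 249.5 in Control (SD, n = 4) and 446 ± 124 in Aged+CF (SD, n = 3). Aged 34 stood apart from the other Aged ovaries in Amh and Zp3, but not in every granulosa marker. Its Lhcgr level was close to theirs. Lhcgr rose 3.47-fold in Aged vs Control (log2 fold change 1.80 ± 0.36, SE, adjusted p = 0.0127 by edgeR). The Aged+CF vs Aged log2 fold change was -2.07 ± 0.40 with a 95% interval of -2.95 to -1.18 and an unadjusted p of 4e-04, which became 0.15 after adjustment, so that it was not called. Without Aged 34 the same contrast gave -2.11 with an adjusted p of 0.041, and the adjusted p over all 17 other fits ran from 6.45e-05 to 0.728. By absolute log2 fold change Lhcgr ranked 211 of 18956 genes in Aged+CF vs Aged. Aged+CF vs Control gave -0.27 with an interval of -1.07 to 0.53.

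Within each ovary the ratio of the gonadotropin receptors' FPKM separated Aged from the other groups. Lhcgr exceeded Fshr by 10.6, 3.45, 7.32 and 2.56 times in Control 31, 32, 33 and 34, by 38.5, 42.9 and 29.8 times in Aged 31, 33 and 34, and by 4.44, 9.71 and 2.86 times in Aged+CF 30, 32 and 34. The lowest Aged ratio was above the highest of the other ovaries, and Control and Aged+CF overlapped. These ratios were formed after both genes' values were known and were not tested.

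Prlr (ENSMUSG00000005268, chr15:10177238-10349180, plus strand) encodes the prolactin receptor, whose long and short forms are not separated by counts per gene. A predicted gene on the same strand, Gm21973, shares 1.32% of its exonic bases and averaged 0.123 CPM or less in every group. The level of Prlr was 608, 346, 547 and 294 CPM in Control 31, 32, 33 and 34, 1232, 1379 and 734 CPM in Aged 31, 33 and 34, and 795, 894 and 595 CPM in Aged+CF 30, 32 and 34. The Aged ovaries lay above all Control ovaries, with Aged 34 lowest among them, and Aged+CF lay between the groups and overlapped both. Prlr rose 2.48-fold in Aged vs Control (log2 fold change 1.31 ± 0.29, SE, adjusted p = 0.0183). This call was lost without Control 32 (adjusted p = 0.0558) and without Aged 33 (adjusted p = 0.0528). Means were 449 ± 152 CPM in Control (SD, n = 4), 1115 ± 338 in Aged (SD, n = 3) and 761 ± 152 in Aged+CF (SD, n = 3). Relative to Aged, the Aged+CF log2 fold change was -0.55 with an interval of -1.26 to 0.16 and an adjusted p of 0.409. Relative to Control it was 0.76 with an adjusted p of 0.286.

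Ptgfr (ENSMUSG00000028036, chr3:151796502-151837630, minus strand), the receptor through which prostaglandin F2α acts on luteal cells, was at 490.4, 266, 370 and 142 CPM in Control 31, 32, 33 and 34. It was at 1209, 1733 and 492 CPM in Aged 31, 33 and 34 and at 627, 1167 and 620.1 CPM in Aged+CF 30, 32 and 34. Aged 34 exceeded the highest Control ovary by less than 2 CPM, and all Aged+CF ovaries lay above all Control ovaries. Ptgfr rose 3.61-fold in Aged vs Control (log2 fold change 1.85 ± 0.48, SE, adjusted p = 0.0297). The call was lost when any one of Control 32, Control 33, Control 34, Aged 31 or Aged 33 was left out, with adjusted p-values of 0.0822, 0.0577, 0.0644, 0.0654 and 0.0931, and in the fit of Aged and Control ovaries alone (adjusted p = 0.056). Aged+CF vs Aged gave a log2 fold change of -0.51 with an interval of -1.65 to 0.63, and Aged+CF vs Control gave 1.34 ± 0.47 with an adjusted p of 0.249. A predicted gene on the opposite strand, Gm43618, shares 4.85% of the exonic bases of Ptgfr. It was at 3.35 CPM on average in Control and 10.2 CPM in Aged, against 317 ± 148.5 CPM (SD, n = 4) and 1145 ± 623 CPM (SD, n = 3) for Ptgfr.

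Oxtr (ENSMUSG00000049112, chr6:112473683-112489943, minus strand), the receptor for oxytocin, was at 167, 112, 160.4 and 59.9 CPM in Control 31, 32, 33 and 34, 398, 367 and 94.7 CPM in Aged 31, 33 and 34, and 124, 159 and 102 CPM in Aged+CF 30, 32 and 34. Aged 31 and 33 lay above all other ovaries and Aged 34 lay inside the Control range, below every Aged+CF ovary. Oxtr did not pass in Aged vs Control, with a log2 fold change of 1.20 ± 0.47 (SE), an unadjusted p of 0.0276 and an adjusted p of 0.109, which was 0.039 by DESeq2. Without Aged 34 the log2 fold change was 1.65 and the adjusted p 0.0103, and without Aged 34 and Control 33 they were 1.80 and 0.0145. The Aged+CF vs Aged value was -1.16 with an interval of -2.29 to -0.03 and an adjusted p of 0.297. Aged+CF vs Control gave 0.04 with an interval of -1.004 to 1.085.

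Akr1c18 (ENSMUSG00000021214, chr13:4132615-4150654, minus strand) encodes the reductase that inactivates progesterone in the regressing corpus luteum, and had the largest fold change of the 8 genes in both comparisons with Control. The 242 bases before the gene are shown because the level of this gene differed most among ovaries (GRCm38.p6, minus strand, chr13:4150655-4150896, capitals for the GC box on the opposite strand, its only match to the 4 motifs).
Akr1c18: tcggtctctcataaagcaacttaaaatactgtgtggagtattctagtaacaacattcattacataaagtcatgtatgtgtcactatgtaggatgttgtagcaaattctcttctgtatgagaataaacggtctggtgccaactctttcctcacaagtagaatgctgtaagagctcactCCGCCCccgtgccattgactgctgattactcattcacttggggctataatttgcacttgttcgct
The level of Akr1c18 was 322, 70.3, 131 and 57.5 CPM in Control 31, 32, 33 and 34, 1081, 2671 and 219 CPM in Aged 31, 33 and 34, and 1286, 3364 and 665 CPM in Aged+CF 30, 32 and 34. Aged 34 lay inside the Control range, whereas every Aged+CF ovary was above every Control ovary, and Aged+CF 32 was the highest of all. Among all genes of the ovary, Akr1c18 ranked 12 by FPKM in Aged+CF 32, 28 in Aged 33 and 1027 in Control 34. Akr1c18 rose 9.12-fold in Aged vs Control (log2 fold change 3.19 ± 0.88, SE, adjusted p = 0.0377). Without Aged 33 the log2 fold change was 2.20 and the adjusted p 0.129. Leaving out Control 32, Control 33, Control 34, Aged 31 or Aged+CF 30 also ended the call, with adjusted p-values of 0.0992, 0.0846, 0.0942, 0.0629 and 0.058, as did limma-trend (0.0508) and the fit of Aged and Control ovaries alone (0.0594). Without Control 31 the log2 fold change was 3.94, with an adjusted p of 0.0335. The log2 fold change of Aged+CF against Control was 3.61 ± 0.90, rank 41 of 18956 by absolute size, with an unadjusted p of 0.00242 and an adjusted p of 0.136, which was 0.0427 without Aged 34. This log2 fold change was 4.36 without Control 31 and 2.75 without Aged+CF 32. Aged+CF vs Aged gave 0.42 with an interval of -1.60 to 2.44, an interval too wide to place the groups relative to each other, and the sign turned without Aged 34 (-0.09) or without Aged+CF 32 (-0.44).

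Sfrp4 (ENSMUSG00000021319, chr13:19623104-19632994, plus strand) encodes a secreted antagonist of Wnt ligands that is made by luteal cells of rodents. Its level was 1511, 958, 1409 and 473 CPM in Control 31, 32, 33 and 34, 4365, 7044 and 2796 CPM in Aged 31, 33 and 34, and 2153, 3378 and 2450.1 CPM in Aged+CF 30, 32 and 34. Both groups of old mice lay above all Control ovaries, and they overlapped each other. Sfrp4 rose 4.35-fold in Aged vs Control (log2 fold change 2.12 ± 0.41, SE, adjusted p = 0.0119), and it was the only one of the 5 called genes that passed in all 17 other fits, with adjusted p-values of 5.06e-06 to 0.0486. Aged+CF differed from Aged by a log2 fold change of -0.83 with an interval of -1.81 to 0.15 and an adjusted p of 0.373, and from Control by 1.29 ± 0.41 with an adjusted p of 0.211.

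Insl3 (ENSMUSG00000079019, chr8:71689214-71690575, plus strand), a relaxin-family hormone made by theca cells in the ovary, was at 8.64, 9.35, 6.24 and 14.4 CPM in Control 31, 32, 33 and 34. It was at 3.28, 4.16 and 3.64 CPM in Aged 31, 33 and 34 and at 3.33, 4.08 and 10.6 CPM in Aged+CF 30, 32 and 34. The Aged ovaries lay below all Control ovaries, and in Aged+CF only the ovary numbered 34 lay in the Control range. Behind these levels stood 55 to 271 counts per ovary. The log2 fold change was -1.38 ± 0.42 (SE) in Aged vs Control, with an unadjusted p of 0.0085 and an adjusted p of 0.053 that became 0.0235 without Aged+CF 34. Insl3 also passed by DESeq2 (adjusted p = 0.00976), by limma-trend (adjusted p = 0.0493) and in the fit of Aged and Control ovaries alone (adjusted p = 0.0344). Aged+CF vs Aged gave 0.71 with an interval of -0.28 to 1.70, and without Aged+CF 34 it was -0.0028. Of the 623 exonic bases of Insl3, 404 (64.9%) are also exonic in Jak3, which encodes a kinase of cytokine receptors and is read from the same strand, so the Insl3 counts depend on how shared reads were assigned. Jak3 rose in Aged vs Control, from 18.2 ± 1.76 CPM (SD, n = 4) to 34.1 ± 1.67 CPM (SD, n = 3), with a log2 fold change of 0.91 and an adjusted p of 0.0062, the opposite direction to Insl3.

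**Figure D2:**
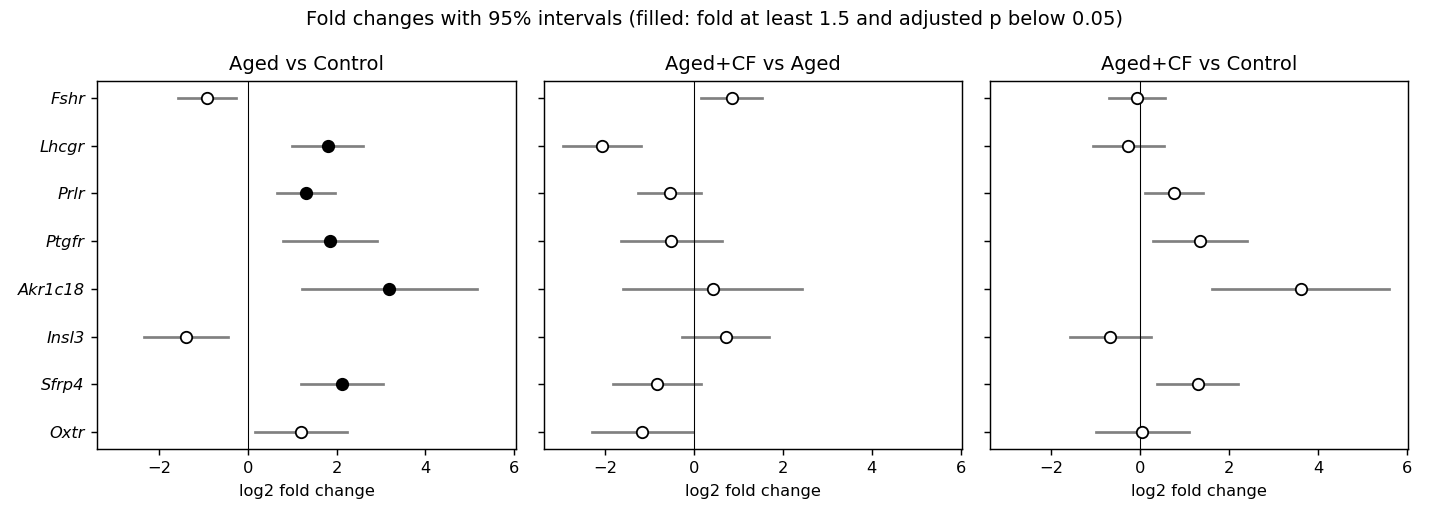
Log2 fold change of each of the 8 genes with its 95% interval, 1 panel per comparison (Aged with Control, then Aged+CF with each of them), with filled points for genes called by edgeR. The 5 filled points, all in Aged vs Control, lie between 1.31 and 3.19, and the Lhcgr interval in Aged+CF vs Aged runs from -2.95 to -1.18.

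Compared by FPKM, the order of the 8 genes differed between the groups. In Control, Sfrp4 led with a mean of 162 FPKM, followed by Akr1c18 (97.9), Lhcgr (49.7), Ptgfr (38.9), Prlr (20.5), Insl3 (16.0), Oxtr (15.3) and Fshr (8.92). The ranges of all neighbours in this order overlapped. In Aged, Akr1c18 was at 779 FPKM and Sfrp4 at 632, Lhcgr at 158, Ptgfr at 125, Prlr at 46.0, Oxtr at 31.6, Insl3 at 5.58 and Fshr at 4.37. Here Sfrp4 was above Lhcgr, Ptgfr above Prlr and Oxtr above Insl3 without overlap, and the other neighbours overlapped. In Aged+CF, Akr1c18 was at 1159 FPKM and Sfrp4 at 386, and Ptgfr (95.9) stood above Lhcgr (40.1) without overlap, while Prlr was at 33.9, Oxtr at 15.3, Insl3 at 9.70 and Fshr at 8.34. The FPKM rest on the deposited gene lengths, which for some genes exceed the exonic length of the annotation used here (6938 against 4179 bases for Sfrp4), so the order between genes depends on them. Lhcgr stood above Ptgfr in all 4 Control ovaries and 2 of 3 Aged ovaries, and below it in all 3 Aged+CF ovaries.

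The ratios of the luteal genes to Lhcgr showed the same ovaries from another side. Sfrp4 exceeded Lhcgr by 3.12, 3.51, 3.29 and 3.27 times in Control 31, 32, 33 and 34 and by 3.60, 6.13 and 2.53 times in Aged 31, 33 and 34, against 6.51, 11.0 and 13.04 times in Aged+CF 30, 32 and 34. The Control ovaries, whose Lhcgr levels differed more than 3-fold, thus held a nearly fixed ratio of 3.30 ± 0.159 (SD, n = 4), and all Aged+CF ovaries were above all others. Akr1c18 exceeded Lhcgr by 16.0 to 49.3 times in Aged+CF, by 0.895 to 10.5 times in Aged and by 1.16 to 3.00 times in Control. The Prlr to Lhcgr ratio was 0.736 to 0.970 in Aged+CF, 0.203 to 0.367 in Aged and 0.384 to 0.623 in Control, with no overlap between any pair of groups. Ptgfr to Oxtr, both receptors that signal through Gq, was 2.30 to 2.93 in Control, 3.03 to 5.19 in Aged and 5.06 to 7.33 in Aged+CF. The ratios to Lhcgr share their denominator, and all ratios were formed with the levels known and were not tested.

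**Figure D3:**
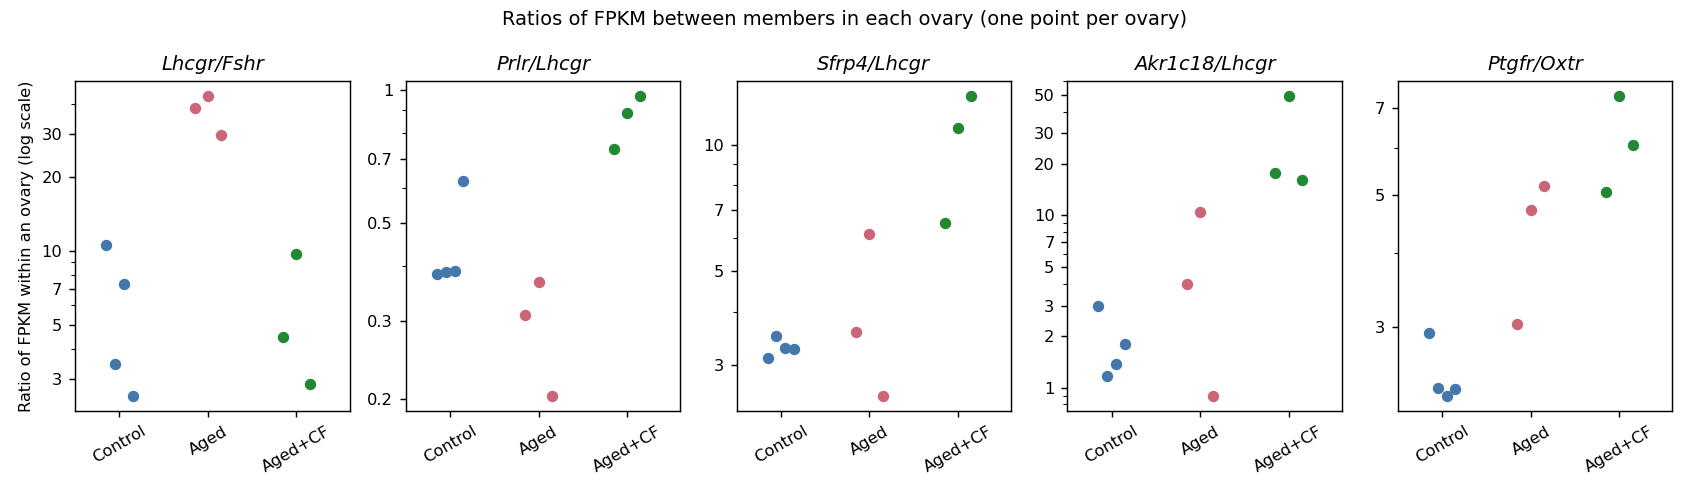
Ratio of FPKM between pairs of the 8 genes on log scales, with 1 point per ovary for Control (n = 4), Aged (n = 3) and Aged+CF (n = 3). Lhcgr to Fshr is highest in Aged (29.8 to 42.9), whereas Prlr, Sfrp4 and Akr1c18 relative to Lhcgr are highest in Aged+CF.

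To describe how alike the patterns were, the log2 CPM of each gene was standardized over the 10 ovaries, and the root mean square difference between genes was taken, which is 0 for the same pattern. Ptgfr and Sfrp4 (0.228), Prlr and Sfrp4 (0.255) and Prlr and Ptgfr (0.259) were closest, and Ptgfr and Akr1c18 followed (0.348). Lhcgr was farther from these 4, at 0.656 from Prlr and 1.06 from Akr1c18. Fshr and Insl3 were 0.912 from each other and 1.69 to 1.82 from the other 6, whereas the median over 16736 genes with at least 1 CPM was 1.30 to 1.40. These are descriptions over the same 10 ovaries and 3 groups.

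Outside the 8, the genes most like Sfrp4 were Cyp11a1 (0.138), which encodes the enzyme that makes pregnenolone from cholesterol, and Epdr1 (0.145). Epdr1 was also closest to Prlr (0.172). Lipg, which encodes endothelial lipase, was close to both Ptgfr (0.167) and Akr1c18 (0.206), and Slc30a4, a zinc transporter gene, was closest to the latter (0.205). Unc79, a gene for a subunit of a sodium leak channel complex, was most like Lhcgr (0.223), and its Aged mean of 6.10 CPM stood against 3.00 in Control and 2.69 in Aged+CF. Pappa, which encodes a protease that cleaves IGF-binding proteins, was also close to Lhcgr (0.364), at 40.7 CPM in Aged, 14.0 in Control and 11.8 in Aged+CF. Cst8 was most like Oxtr (0.206), BC065397 most like Fshr (0.253) and Cers5, a ceramide synthase gene, most like Insl3 (0.289).

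The pathways downstream of these receptors were followed through lists of their genes, whose counts stand beside the 11.1% of all genes called in Aged vs Control (5.0% higher, 6.06% lower). Of 24 genes of cAMP signalling, all tested, 2 rose and 4 fell in Aged vs Control, with a median log2 fold change of 0.14. The risers were Prkaca, a catalytic subunit of protein kinase A (log2 fold change 0.68, adjusted p = 0.018), and Mvk (1.23, adjusted p = 0.0373), a mevalonate pathway enzyme that also binds Lhcgr mRNA. Those that fell were Adcy7, an adenylyl cyclase (-1.04, adjusted p = 0.0308), Rapgef4, a cAMP-activated exchange factor (-0.91, adjusted p = 0.0177), Pde7b, a phosphodiesterase (-0.79, adjusted p = 0.0478), and Prkar2b, a regulatory subunit of protein kinase A (-0.77, adjusted p = 0.0295). The number called was 0 without Control 32, 1 without Control 34, Aged 31 or Aged 33, and 3 without Control 31, Control 33 or Aged+CF 30. Over all fits that left out 1 ovary it ran from 0 to 7. Neither Aged+CF comparison had a call on this list by edgeR. DESeq2 called 0 against Aged and 1 against Control, and 442 and 528 of 18956 genes. At an unadjusted p, 3 passed against Aged and 1 against Control, where 7.96% and 7.69% of all genes did. The smallest p-values were those of Rapgef4 (0.65, adjusted p = 0.205) and Adcy6 (0.43, adjusted p = 0.217) against Aged, and of Prkar2b (-0.66, adjusted p = 0.188) and Adcy9 (0.41, adjusted p = 0.33) against Control.

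Of 14 genes of prolactin signalling, 1 fell and none rose in Aged vs Control, a share near that of all genes, with a median log2 fold change of 0.07. Socs2, a feedback inhibitor induced by STAT5, fell (-0.64, adjusted p = 0.0228), and this call was lost without Control 32, Control 33 or Control 34, while 2 genes of the list were called without Control 31 or Aged 34. Hsd17b7, whose product binds the short form of PRLR and makes estradiol in luteal cells, spread most widely. It was at 1106, 184, 875 and 57.3 CPM in Control 31, 32, 33 and 34, 3873, 5643 and 156 CPM in Aged 31, 33 and 34, and 509, 209 and 203 CPM in Aged+CF 30, 32 and 34. Aged 31 and 33 were far above all other ovaries and Aged 34 lay below every Aged+CF ovary. Its log2 fold change of -3.39 in Aged+CF vs Aged had an SE of 1.27 and an adjusted p of 0.245. None of the list was called in the Aged+CF comparisons. At an unadjusted p 1 passed against Aged and 2 against Control, all lower, where 7.96% and 7.69% of all genes passed. DESeq2 called 0 and 1 of the list, and 442 and 528 of 18956 genes.

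Of 24 genes of prostaglandin F2α and oxytocin signalling, 23 were tested. Pla2g4a, the phospholipase that releases arachidonic acid, fell in Aged vs Control (-0.65, adjusted p = 0.021), and no other of the 23 passed, a share below that of all genes. The median was 0.09. The number called was 0 without Control 34, 3 without Aged 34 and 2 without Control 31, Aged 31 or Aged 33. Pla2g4a had the smallest p of the list in Aged+CF vs Aged as well (0.57, adjusted p = 0.175), with all 3 Aged+CF ovaries (19.8 to 23.2 CPM) above the 3 Aged ovaries (12.2 to 17.8 CPM). Against Control, Ptges, a prostaglandin E synthase, led without passing (-0.46, adjusted p = 0.163). DESeq2 called 0 of the list in both Aged+CF comparisons. At an unadjusted p 1 passed in each, both lower, where 7.96% of all genes passed against Aged and 7.69% against Control. Of 8 relaxin-family ligands and receptors only Insl6 and Rln3 were tested, the other 6 being filtered for low counts. Insl6 rose in Aged vs Control (2.36, adjusted p = 0.0442), with 7.93, 19.4 and 0.993 CPM in Aged 31, 33 and 34 against 1.43 to 2.13 CPM in Control. The Aged ranges enclosed the Control ones, and the call was lost when any one of Control 31, 32, 33 or 34, Aged 31 or 33, or Aged+CF 30 or 34 was left out.

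The list of luteal and luteinization genes held 18, none of them among the 8. In Aged vs Control 7 of 18 rose and none fell, against 5.0% and 6.06% of all genes, with a median log2 fold change of 0.55. Star, which carries cholesterol into mitochondria, rose 7.12-fold (adjusted p = 0.0194), the lipoprotein receptor Scarb1 3.30-fold (adjusted p = 0.0329) and Cyp11a1 2.77-fold (adjusted p = 0.0158). Hsd3b1, Parm1 and Cdkn1b also passed. The number of calls was 0 without Control 32, 2 without Control 34, 3 without Aged 33 and 4 without Control 33. Over all fits that left out 1 ovary it ran from 0 to 8. In both Aged+CF comparisons edgeR called none. Against Aged the list had a median log2 fold change of -0.25, with 7 genes positive and 11 negative. At an unadjusted p 2 passed there, both higher, where 7.96% of all genes passed. Against Control 9 passed, 8 higher and 1 lower, where 7.69% of all genes did. DESeq2 called 1 and 3 of the list, and 442 and 528 of 18956 genes. Cdkn1a, an inhibitor of the cell cycle that rises as granulosa cells luteinize, was at 41.9 to 78.2 CPM in Aged+CF, above all Aged (15.0 to 27.3 CPM) and Control (14.1 to 25.9 CPM) ovaries. Its log2 fold change was 1.45 (adjusted p = 0.159) against Aged and 1.52 (adjusted p = 0.0719) against Control, so it passed in neither. The summed level of the 18 genes was 8232 to 12920.0 CPM in Control, 15468 to 36275 CPM in Aged and 15256 to 20717 CPM in Aged+CF, lowest in Control 34 and highest in Aged 33, the ovaries at which Sfrp4 was also lowest and highest. Cyp11a1, Hsd3b1 and Star gave 13665, 8985 and 6510 CPM of the sum in Aged 33, so it mostly follows these genes. Runx1 (22.6 CPM) and Pgr (1.41 CPM) were lowest in that ovary.

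Markers of other cell types were followed in the same fit, in which 6.06% of all genes were called lower and 5.0% higher in Aged vs Control. Of 14 granulosa markers 2 fell and none rose, a count too small to read anything from. Their median log2 fold change was -0.71, with 12 negative and 2 positive. At an unadjusted p 6 were lower and none higher, against 9.44% and 8.79% of all genes. Their sum was 7001 to 10322 CPM in Control, 4479 to 6579 in Aged and 4123 to 6689 in Aged+CF. Of 9 theca markers 3 fell, with sums of 2396 to 3173, 1955 to 5301 and 2608 to 2897 CPM. Of 15 oocyte markers 12 fell, with sums of 534 to 710.0 CPM in Control, 70.5 to 182 in Aged and 245 to 359 in Aged+CF, Figla being at 0 in 1 ovary. Of 6 endothelial markers 5 rose and of 9 leukocyte markers 5 rose, with endothelial sums of 340 to 418, 495 to 657 and 428 to 461 CPM and leukocyte sums of 97.6 to 112, 129 to 439 and 141 to 191 CPM in Control, Aged and Aged+CF. None of the 8 smooth muscle, 7 adipocyte, 9 stromal and surface epithelial or 9 tested oviduct markers was called. No marker on the granulosa, theca, endothelial, leukocyte or luteal lists was at 0 in any ovary. After CEFFE no gene of these lists was called by edgeR relative to Aged. At an unadjusted p, which 7.96% of all genes passed (3.91% higher, 4.05% lower), 2 granulosa, 3 theca and 6 oocyte markers were higher and 1 theca, 4 leukocyte, 2 endothelial and 1 oviduct markers lower. Relative to Control edgeR called none of them in Aged+CF either. There, 5 granulosa, 11 oocyte and 2 oviduct markers were lower and 3 leukocyte markers higher at an unadjusted p, which 7.69% of all genes passed. Aged 34 set the upper end of the Aged theca and leukocyte sums and the lower end of the granulosa, oocyte and endothelial ones. Aldh1a1 gave 4453 of the 5301 CPM of the theca sum in Aged 34, so this sum mostly follows that gene. Cyp17a1 was also highest in Aged 34 (504 CPM), whereas Hhip (0.441 CPM) and Ptch1 (83.3 CPM) were lowest there. In Aged 31 and 33 the sums were 1955 and 2935 CPM for theca, 172 and 129 for leukocyte, 5794 and 6579 for granulosa, 182 and 168 for oocyte and 562 and 657 CPM for endothelial markers. Without Aged 34, 3 granulosa, 4 theca, 12 oocyte, 1 smooth muscle and 1 oviduct markers fell and 1 theca, 5 endothelial and 4 leukocyte markers rose in Aged vs Control. That fit called more of all genes, 3112 of 19342 tested against 2096 of 18956 with all ovaries, so its counts have a higher background. Over the fits that left out one ovary, called granulosa markers numbered 2 to 4, theca 2 to 5, oocyte 7 to 12, endothelial 1 to 5 and leukocyte 3 to 7. Called endothelial markers numbered 1 without Control 32, Control 34 or Aged 33, oocyte markers 7 without Control 34, and granulosa markers 4 without Aged 31. Leukocyte markers numbered 3 without Control 32 or Control 34. In Aged+CF vs Aged, DESeq2 called 2 granulosa, 1 theca and 1 oocyte markers higher and 1 leukocyte and 2 endothelial markers lower. It called 442 of 18956 genes in that comparison. The part of these cell types in the levels of the 8 genes was not tested.

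**Figure D4:**
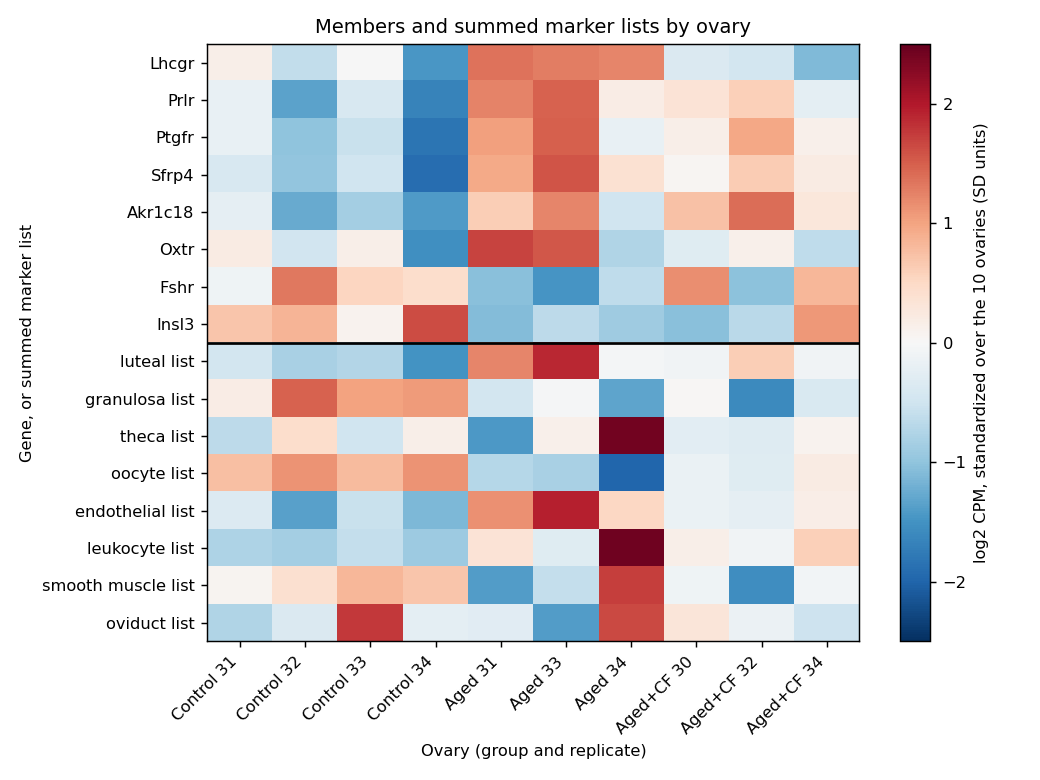
Log2 CPM of the 8 genes (upper rows) and of the sums of 8 marker lists (lower rows) in each of the 10 ovaries (columns), standardized per row, with red above and blue below the row's mean in SD units. Prlr, Ptgfr, Sfrp4 and the luteal list are highest in Aged 33 and lowest in Control 34, while Lhcgr is evenly red in the 3 Aged ovaries.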

How the data were processed

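For each of 10 ovaries (4 Control, 3 Aged, 3 Aged+CF, assigned by their titles) the authors deposited raw counts per gene and FPKM values. The submitters' processing notes name TopHat, Cufflinks 2.1.1 and GRCm38.p4. The annotation, counting tool and strand setting were not given in the sources used here. The deposited FPKM equals the count divided by a fixed gene length and the library total. Counts were analysed in R 4.3.3 with edgeR 4.0.16 (low-count filter, TMM scaling, quasi-likelihood fit of all 10 ovaries with a mean per group). Of 55487 genes, 18869 had no count in any ovary and 18956 were tested. Calls needed a fold of at least 1.5 and a BH-adjusted p under 0.05. Intervals are 95% and come from the fit. Levels are TMM-scaled CPM, with a prior count of 2 on the log2 scale. DESeq2 1.42.0 and limma 3.58.1 (limma-trend), other filters, scalings and call rules, and fits without single ovaries were alternatives. Depth was 15761789 to 21318254 counts per ovary, and no libraries of a group were duplicates. P-values measure the spread between ovaries listed as separate samples. The fit was tested on simulated data.

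The 8 genes and the lists were chosen with earlier results of these data known. Named genes were the 8, for each pathway list up to 4 called genes per direction and comparison with the largest fold and a mean of at least 1 CPM (where none was called, those with the smallest p), the 3 genes most like each member, the highest markers of each list, and genes that overlap a member. Hsd3b1, Parm1, Cdkn1b, Amh, Zp3 and Figla were named after their values were seen. Some genes that the rule selects are not reported here. Positions and overlaps are from GENCODE M21 (GRCm38), and promoters and their build from RefSeq, with 7 of the 8 genes matched and Sfrp4 not.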

Additional observations from a re-analysis of the deposited data

Results flagged for a closer look

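Among 17 levels and ratios of the 8 genes checked in the 4 Control ovaries, 3 ratios of FPKM had 1 ovary far from the others by Dixon's ratio of gap to range, where chance gives about 1 in 20. The ratio of Prlr to Lhcgr was 0.623 in Control 34 and 0.384 to 0.390 in the other 3 (gap over range 0.9748). The ratio of Akr1c18 to Prlr was 7.80 in Control 31 and 2.88 to 3.53 in the others (0.868). The ratio of Ptgfr to Oxtr was 2.93 in Control 31 and 2.30 to 2.37 in the others (0.884).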

How the results depend on the processing

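Members called in Aged vs Control numbered 5, and 8 by DESeq2, 8 at an unadjusted p, 3 with the replicate block and 2 to 6 when one ovary was left out. It was also 5 by limma-trend (4 higher, 1 lower) and with only the compared groups in the fit (3 higher, 2 lower), where Insl3 was gained and Akr1c18 lost in both, and Fshr gained and Ptgfr lost in the second. For Aged+CF vs Aged the 0 became 1 by DESeq2, 3 at an unadjusted p and 0 to 1 by ovary. For Aged+CF vs Control the 0 became 2 by DESeq2, 4 at an unadjusted p, 1 with only the compared groups in the fit and 0 to 1 by ovary. The cause was not tested. Over all genes the calls were 2096, 1 and 34, against 2761, 442 and 528 by DESeq2, 80, 0 and 9 with the replicate block, and 3112, 556 and 348 without Aged 34. Whether ovaries of equal number share anything cannot be decided from so few pairs. Deviations of same-numbered ovaries correlated at -0.185 to 0.138 over 3 pairs in Aged vs Control. There 3 of 6 ovaries correlated best with their own number, as did 2 of 4 in Aged+CF vs Control and 0 of 2 in Aged+CF vs Aged. Signs turned only in contrasts that were not called: Ptgfr in Aged+CF vs Aged under the block (0.35), and, leaving out one ovary, Akr1c18 (-0.44 to 1.44) and Insl3 (-0.0028 to 0.98) in the same contrast, and Fshr (-0.28 to 0.23) and Oxtr (-0.19 to 0.21) against Control. Akr1c18 was at -0.0923 against Aged without Aged 34 and Control 33. Leaving out Aged 34 and Control 33 together, and recounting the gene lists under each alternative, were chosen after seeing the data. With 3 or 4 ovaries a group, intervals were wide, and a p over the threshold does not show equal levels.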
